A study of Mus musculus with 12 samples.

Results

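Conventional CD4+ T cells (Tconv) from the tumour were compared with Tconv from the spleen of the same kind of tumour-bearing (TB) mouse, across every gene with enough counts to test. The comparison rests on 4 of the 12 libraries of the series, 2 from tumour and 2 from TB spleen, and on 13509 of the 24062 genes in the table. All C57BL/6 mice in both groups had received 500000 TC-1 cells by tail vein and were killed 3 weeks later. TC-1 is a mouse lung epithelial line made tumorigenic and grown by transplantation. Tconv were the CD4+GFP- cells sorted after negative selection, since GFP marks regulatory T cells (Treg). The label does not name the GFP allele. The other groups are Treg of the same 2 sites and both cell types from the spleen of normal mice, which received no tumour cells. No library came from the tumour's organ in a mouse without tumour, so effects of the tumour and of its organ cannot be told apart. Nothing in the labels says if the paired libraries of a group are from different animals. The p-values thus describe only spread between libraries, which may be technical. That spread was estimated over all 12 libraries, and the other groups were more alike within themselves than the tumour Tconv pair.

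Tconv are the helper T cells of the CD4 lineage. In the spleen most of them are resting cells that recirculate through lymphoid organs. When the T cell receptor is engaged, calcium, MAP kinase and NF-kB signalling switch on immediate early transcription factors of the AP-1, Nr4a and Egr families, and these are followed by feedback inhibitors, cytokine receptors and, after some delay, cell division. T cells that settle in tissue take on a further set of genes for retention, and lose genes for recirculation or for help to B cells in follicles.

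Total counts were 18818716 and 22773153 in the tumour libraries and 18624132 and 21644530 in the TB spleen libraries. Levels are CPM, counts scaled to a common library total. They are given for library 1 and library 2 of tumour, then for library 1 and library 2 of TB spleen. Changes are log2 fold changes ± SE (tumour minus TB spleen). The adjusted p is from edgeR's quasi-likelihood test over all tested genes, with a threshold of 0.05. Cd4 was at 1417 and 1276 CPM against 1317 and 1457, a difference that did not pass (−0.04 ± 0.09, adjusted p = 0.718). Foxp3, the transcription factor that defines Treg, was at 16.2 and 11.5 CPM against 13.3 and 16.8, did not pass (−0.14 ± 0.15, adjusted p = 0.456), and in tumour Tconv it reached 1.15% of its level in tumour Treg. The T cell receptor subunit Cd3e was at 669 and 603 CPM against 754 and 772 and fell slightly (−0.26 ± 0.07, adjusted p = 0.00921), a call lost without tumour library 2 (−0.20, adjusted p = 0.0646). In bulk libraries such as these, fewer cells of a type and less RNA per cell cannot be told apart. The tumour libraries were less alike than those of other groups: 713 genes differed by over 2-fold between them, against 25 between the TB spleen Tconv libraries and 13 to 27 in the remaining groups.

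Between the sites, 6639 genes passed the test, which is 49.1% of those tested, with 3562 higher in tumour (26.4%) and 3077 lower (22.8%). The larger changes were mostly increases, with 2206 genes at least 2-fold higher (16.3%) and 425 at least 2-fold lower (3.15%). The libraries of the 2 groups did not overlap for 9912 genes (73.4%). The median log2 fold change of all tested genes was 0.00. With library-size scaling that median moved by −0.108 and the share of called genes that were higher fell to 41.5%, against 53.7% with the scaling used here. Counts of gene list members are to be read against the shares of 26.4% higher and 22.8% lower. Some genes are in several lists, such as Crem (tissue residency and cyclic AMP) and Bhlhe40 (lineage and circadian), so list counts are not independent. Of 62 list counts of 4 or more members in 1 direction, 13 moved by over 1.5 times with 1 library left out, and these values stand beside the lists. The counts of 3 or fewer ranged from 0 to 4 over these leave-outs.

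**Figure D1:**
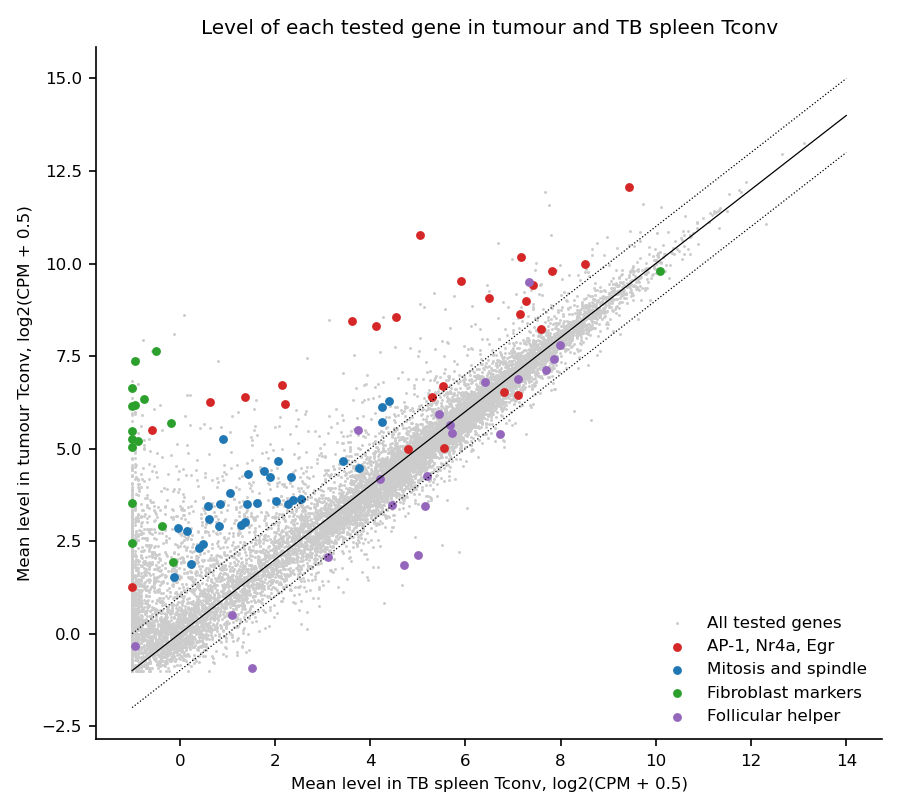
Mean level of each of the 13509 tested genes in TB spleen Tconv (horizontal axis) and tumour Tconv (vertical axis), both as log2(CPM + 0.5), with the members of 4 gene lists in colour. The solid line marks equal levels and the dotted lines a 2-fold change, and the points at the left edge are genes with no or almost no counts in TB spleen.

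The genes that were at least 2-fold higher spanned the range of levels in spleen Tconv. Of the 2206, 1526 (69.2%) had a mean level under 1 CPM in TB spleen, 409 lay between 1 and 10 CPM, and 271 had at least 10 CPM there. These bounds divide a continuous range. Genes this low in spleen passed the filter on low counts through the libraries where they are higher. In Treg 1326 of the 1526 (86.9%) were also called and at least 2-fold higher in tumour, beside 17.2% of all tested genes. Among the 1526 genes 651 genes differed by over 2-fold between the tumour libraries, and the median log2 ratio of tumour library 2 to library 1 was 0.88. Among the 271 genes 5 differed by over 2-fold between the tumour libraries and the median ratio was −0.03, beside 0.02 for all tested genes. Most gene lists are described first, and transcripts known from other cells after them. Some genes in the first part, such as Il17a, Il22, Il17f, Il23r, Cdkn1a and Thbs1, were also under 1 CPM in TB spleen.

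Immediate early transcription factors rose in most of the members tested. Of 26 tested members of the AP-1, Nr4a and Egr list, 22 rose and 3 fell, beside 26.4% and 22.8% of all tested genes, with a median of 2.60. Fosl2, which encodes the AP-1 subunit FRA2 (chromosome 5, 32135801 to 32157842, mm10), was at 1753 and 1726 CPM against 27.3 and 37.3 and rose by 5.75 ± 0.18, adjusted p = 4.00e-10. The tumour libraries were nearly equal. Among the orphan nuclear receptors, Nr4a3 was at 398 and 299 CPM against 12.7 and 10.9 (4.88 ± 0.15, adjusted p = 3.06e-10). Nr4a1 was at 737 and 732 CPM against 68.0 and 50.6 (3.63 ± 0.13). Nr4a2 was at 72.2 and 94.3 CPM against 2.08 and 2.06 (5.33 ± 0.18). No tumour library overlapped a spleen library for any of these 3 receptors, as for 73.4% of all tested genes. Nr4a3 and Nr4a1 are among the 20 largest increases, which were taken only from genes without overlap. Crem, a cyclic AMP-responsive factor, stood at 359 and 394 CPM against 23.7 and 22.2 (4.04 ± 0.09, adjusted p = 6.11e-11). Maff, a small MAF family factor, stood at 79.7 and 67.9 CPM against 4.53 and 3.77 (4.15 ± 0.15). Klf4 was at 95.6 and 114 CPM against 5.26 and 2.56 (4.77 ± 0.27).

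The classical AP-1 pair was less even in spleen. Fos was at 1324 and 989 CPM against 259 and 29.1, and Jun at 718 and 659.6 CPM against 294 and 46.8. Junb, one of the 10 genes with the largest share of all counts in tumour Tconv, was at 4745 and 3767 CPM against 1052 and 329 and rose by 2.62 ± 0.42, adjusted p = 2.46e-04. For these 3 genes and for Fosb (299.6 and 338 CPM against 30.6 and 3.32), TB spleen library 1 lay between library 2 and the tumour libraries, and the normal spleen libraries were near spleen library 2, for example at 14.3 and 28.7 CPM for Fos. Fos rose by 3.01 ± 0.91 (adjusted p = 0.0156), Jun by 2.02 ± 0.75 (adjusted p = 0.0409) and Fosb by 4.27 ± 0.69 (adjusted p = 2.86e-04). Without spleen library 1 the changes were larger in Fos (5.31, adjusted p = 0.00361), Jun (3.88, adjusted p = 0.00504) and Fosb (6.58, adjusted p = 1.62e-04). Without spleen library 2 the calls of Fos (2.16, adjusted p = 0.0840) and Jun (1.23, adjusted p = 0.209) were lost, and that of Jun was also lost without tumour library 1 (1.97, adjusted p = 0.0562). The call of Jun was lost with DESeq2 too (2.05, adjusted p = 0.0625), as it was with the 8 libraries of TB mice (2.04, adjusted p = 0.0613) and with the 4 compared libraries alone (2.06, adjusted p = 0.0574). The members that fell were Egr3 (−0.54 ± 0.14), the growth factor-induced Myc (−0.68 ± 0.12) and Srf (−0.29 ± 0.08). The call of Egr3 was lost without tumour library 1 (−0.36, adjusted p = 0.0550) and without spleen library 1 (−0.46, adjusted p = 0.0548), and that of Srf without tumour library 2 (−0.17, adjusted p = 0.129) and without spleen library 2 (−0.26, adjusted p = 0.0791).

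**Figure D2:**
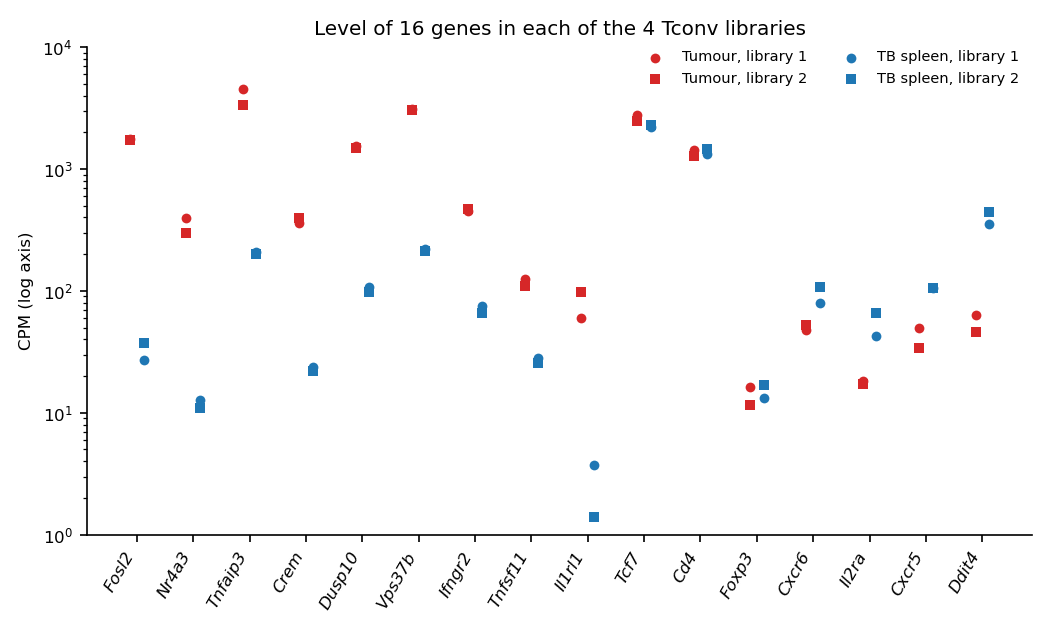
CPM on a log axis of 16 genes in each of the 4 libraries, red for tumour Tconv and blue for TB spleen Tconv, circles for library 1 and squares for library 2. Tumour libraries lie above spleen libraries from Fosl2 to Il1rl1, overlap or nearly meet them for Tcf7, Cd4 and Foxp3, and lie below them from Cxcr6 to Ddit4.

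Genes that damp receptor signalling rose beside these factors. Of 16 MAP kinase phosphatase and ERK feedback genes, 13 rose and 1 fell, with a median of 2.28. Dusp10, a phosphatase for p38 and JNK, was at 1539 and 1486 CPM against 107 and 97.2 (3.89 ± 0.13, adjusted p = 6.35e-10). Dusp5, a nuclear ERK phosphatase, was at 404 and 346 CPM against 17.0 and 20.4 (4.32 ± 0.11). Errfi1, an inhibitor of EGF receptor family kinases, was at 133 and 233 CPM against 13.0 and 11.1 (3.93 ± 0.23), with tumour library 2 well above library 1. Dusp7, which acts on ERK, went the other way at 34.9 and 30.0 CPM against 111 and 112 (−1.78 ± 0.09, adjusted p = 1.50e-08). In Dusp5, 22.1% of exonic bases overlap an opposite-strand gene, whose reads could be among its counts.

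Cyclic AMP and G protein signalling genes changed in both directions, 11 up and 5 down of 26 and 10 up and 6 down of 23. With library-size scaling the second list split evenly, 10 up and 10 down, and its median turned from 0.04 to −0.07. The kinase Sik1, a brake on CREB coactivators, was at 524 and 435 CPM against 33.5 and 31.6 (3.88 ± 0.09, adjusted p = 6.20e-11). The phosphodiesterases Pde4d (1.62 ± 0.07) and Pde4b (1.49 ± 0.08), which break down cyclic AMP, rose too, while the prostaglandin E2 receptor Ptger2 fell (−1.38 ± 0.13). Rgs2 was at 618 and 561 CPM against 41.9 and 38.2 (3.88 ± 0.11). Rgs1 was at 540.4 and 360.1 CPM against 34.7 and 34.7 (3.70 ± 0.18). Both shorten G protein signals, whereas their relatives Rgs3 (−1.07 ± 0.08), Rgs14 (−0.55 ± 0.08) and Rgs19 (−0.52 ± 0.07) fell. Among genes of messenger RNA turnover, 11 of 20 rose and 2 fell. Zfp36, which destabilises cytokine messages, was at 1525 and 1180.2 CPM against 525 and 285 (1.74 ± 0.27). Arid5a, which stabilises some of them, was at 951 and 874 CPM against 162 and 189 (2.38 ± 0.11).

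Feedback genes of NF-kB, the transcription factor family downstream of antigen, costimulatory and interleukin 1 family receptors, rose in 16 of 20 and fell in 1, with a median of 0.75. Tnfaip3, which encodes the ubiquitin-editing inhibitor A20 (chromosome 10, 19000910 to 19015657, mm10), was at 4526 and 3359.9 CPM against 209.8 and 199 and rose by 4.27 ± 0.13, adjusted p = 3.27e-10. It was among the 10 genes with most counts in tumour Tconv, beside Eef1a1, Eef2, B2m, Junb, H2-K1, Rpl4, Ets1, Stk17b and Vps37b. Smaller increases were found in Nfkbiz (251 and 225 CPM against 52.8 and 37.4, 2.40 ± 0.14), Nfkbid (139 and 101 CPM against 43.4 and 37.6, 1.56 ± 0.13) and the inhibitor Nfkbia (493 and 455 CPM against 226 and 216, 1.10 ± 0.07). Nfkb2, the precursor of the noncanonical subunit p52, was at 208 and 192 CPM against 93.1 and 93.7 (1.10 ± 0.07). The endonuclease Zc3h12a was at 115 and 96.4 CPM against 32.9 and 26.2 (1.84 ± 0.13). The member that fell was Traf3, an inhibitor of the noncanonical branch (−0.17 ± 0.06, adjusted p = 0.0330). Its call was lost without tumour library 1 (−0.13, adjusted p = 0.218), without spleen library 1 (−0.13, adjusted p = 0.157) and by DESeq2 (−0.13, adjusted p = 0.113).

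Promoter windows of 4 of these genes are shown because each holds a match to the NF-kB consensus. Each window runs from 250 bases before to 50 after a start site, from RefSeq on GRCm38.p6, printed on the gene's own strand. Capitals mark matches, on either strand, to the NF-kB consensus, to the AP-1 motif (TGACTCA or TGAGTCA) or to the full cyclic AMP response element (TGACGTCA), and overlapping matches run together. The windows are chr10:19015361-19015660 on the minus strand for Tnfaip3, chr12:55492598-55492897 on the minus strand for Nfkbia, chr19:46304487-46304786 on the plus strand for Nfkb2 and chr7:30422156-30422455 on the plus strand for Nfkbid.
Tnfaip3: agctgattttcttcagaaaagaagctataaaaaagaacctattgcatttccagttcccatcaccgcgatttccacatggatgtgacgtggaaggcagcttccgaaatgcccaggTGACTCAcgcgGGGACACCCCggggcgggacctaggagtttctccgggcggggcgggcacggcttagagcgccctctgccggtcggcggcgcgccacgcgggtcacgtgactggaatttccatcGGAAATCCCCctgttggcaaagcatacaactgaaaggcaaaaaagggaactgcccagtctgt
Nfkbia: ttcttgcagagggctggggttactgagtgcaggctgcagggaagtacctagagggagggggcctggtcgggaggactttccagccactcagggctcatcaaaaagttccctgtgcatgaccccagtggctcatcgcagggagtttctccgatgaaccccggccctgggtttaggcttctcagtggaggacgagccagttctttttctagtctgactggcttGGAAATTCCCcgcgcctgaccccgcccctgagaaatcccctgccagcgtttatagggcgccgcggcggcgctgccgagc
Nfkb2: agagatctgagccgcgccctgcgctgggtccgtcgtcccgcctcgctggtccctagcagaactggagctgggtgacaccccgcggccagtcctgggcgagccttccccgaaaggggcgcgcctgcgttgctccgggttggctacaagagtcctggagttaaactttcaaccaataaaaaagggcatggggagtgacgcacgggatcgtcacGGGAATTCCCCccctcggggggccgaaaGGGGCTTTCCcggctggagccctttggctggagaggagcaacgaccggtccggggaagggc
Nfkbid: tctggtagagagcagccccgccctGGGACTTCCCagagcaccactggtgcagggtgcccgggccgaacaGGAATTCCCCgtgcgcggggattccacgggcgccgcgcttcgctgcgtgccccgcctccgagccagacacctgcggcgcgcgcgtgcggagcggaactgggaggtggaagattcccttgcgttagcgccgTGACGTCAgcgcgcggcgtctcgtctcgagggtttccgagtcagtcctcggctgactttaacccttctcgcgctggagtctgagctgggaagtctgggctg

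In the Tnfaip3 window the AP-1 motif begins at −136, and the NF-kB matches begin at −125 and −12. The Nfkbia match begins at −29. The Nfkb2 window holds overlapping matches from −39 and −38 and another from −11, and the Nfkbid window holds matches from −226 and −181 and a cyclic AMP response element from −51. Other windows of these genes were not alike: a second Tnfaip3 window and 2 further Nfkbid windows held none of the motifs, nor did the only windows of Zc3h12a and of Birc3, while 2 further Nfkb2 windows held the NF-kB consensus. Of the 17 NF-kB list genes in the promoter table, 10 (58.8%) had the consensus in at least 1 window, against 654 of 10133 tested genes (6.45%). That list was made of genes known for this pathway, so the share is a description and not a test. Among the 20 genes with the largest increases, 5 of the 14 in the table had the consensus (35.7%), and among the 20 with the largest decreases 2 of 15 (13.3%).

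Lineage factors did not move as one group: 23 of 46 rose and 9 fell, with a median of 0.32. Irf4, which rises with receptor signal strength, was at 186 and 172 CPM against 29.0 and 34.2 (2.50 ± 0.10, adjusted p = 1.72e-09). Bhlhe40, a regulator of cytokine production in helper cells, was at 497 and 375 CPM against 38.9 and 55.0 (3.21 ± 0.21). Nfil3 was at 60.5 and 56.9 CPM against 7.19 and 9.42 (2.81 ± 0.15). Myb, a factor of stem-like T cells, was at 135 and 135 CPM against 40.4 and 32.0 (1.90 ± 0.10). Among the factors that fell were the innate-like T cell factor Zbtb16 at 1.92 and 2.54 CPM against 10.6 and 19.5 (−2.75 ± 0.37). The CD4 lineage factor Zbtb7b was at 107 and 88.0 CPM against 232 and 233 (−1.25 ± 0.10). Tbx21, the T helper 1 factor, was at 19.2 and 15.8 CPM against 26.9 and 37.8 (−0.89 ± 0.20, adjusted p = 0.00275). The T helper 2 factor Gata3 did not pass (0.18 ± 0.13, adjusted p = 0.262), though it passed without tumour library 2 (0.41, adjusted p = 0.00337).

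Several cytokine and receptor genes known from T helper 17 cells were low in level. Among them, the receptor genes Ccr6 (12.1 and 9.66 CPM against 3.39 and 4.17, 1.51 ± 0.17) and Il23r (3.67 and 2.45 CPM against 0.365 and 0.538, 2.72 ± 0.39) rose. The cytokine Il17f was at 2.31 and 2.81 CPM against 0.156 and 0.0449, so near 0 in spleen that no fold is given. Il17a had 84 and 133 counts in tumour against 0 in both spleen libraries and was at least 74.4-fold higher, and Il22 had 24 and 31 against 0 and was at least 19.1-fold higher. Both bounds take 3 counts over the spleen libraries as the limit of detection. Of the remaining helper cytokines, Ifng, of T helper 1 cells, rose slightly (11.6 and 11.4 CPM against 8.02 and 5.83, 0.73 ± 0.23, adjusted p = 0.0195), Il10 rose (10.2 and 4.40 CPM against 2.34 and 1.71, 1.83 ± 0.33) and Tnf fell (9.70 and 8.71 CPM against 23.8 and 13.6, −1.02 ± 0.23). Without spleen library 2 the call of Ifng was lost (0.51, adjusted p = 0.174). Without tumour library 1 the change of Il10 was 1.14, adjusted p = 8.70e-04, and without spleen library 1 that of Tnf was −0.56, adjusted p = 0.0418. Il5 and Il13, of type 2 cells, were too low to test, with 16 and 1 counts of Il5 and 12 and 7 of Il13 in tumour against at most 1 per spleen library. Over the 26 tested cytokines and growth factors, 13 rose and 7 fell.

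Of 21 genes of follicular helper cells, which help B cells in lymphoid follicles, 12 fell and 4 rose, beside 22.8% and 26.4% of all tested genes, with a median of −0.44. The number that fell was 9 without tumour library 2, 8 without spleen library 2 and 9 with the 4 compared libraries alone. Cxcr5, the follicle homing receptor, was at 49.6 and 33.7 CPM against 106 and 106 (−1.35 ± 0.24, adjusted p = 5.00e-04). Sostdc1 was at 5.24 and 2.49 CPM against 27.6 and 35.5 (−3.06 ± 0.64). Ascl2, a factor that induces Cxcr5, was at 0.0564 and 0.00 CPM against 2.34 and 2.38, a single count in the tumour libraries together, and the transcriptional coactivator Pou2af1 at 11.7 and 8.98 CPM against 37.4 and 32.3 (−1.75 ± 0.21). Bcl6, the factor of this lineage, went the other way at 64.4 and 56.7 CPM against 41.9 and 44.0 (0.49 ± 0.12, adjusted p = 0.00553), as did the costimulator Icos at 743 and 706 CPM against 160.1 and 164 (2.16 ± 0.07). The inhibitory receptor Pdcd1 did not pass (0.40 ± 0.17, adjusted p = 0.0701), and passed without tumour library 2 (0.56, adjusted p = 0.0185) or without spleen library 2 (0.62, adjusted p = 0.0307).

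Cytokine receptors rose in 17 of 38 and fell in 7, beside 26.4% and 22.8% of all tested genes, with a median of 0.27, and 4 fell without spleen library 2. Ifngr2, the signalling chain of the interferon gamma receptor (chromosome 16, 91547072 to 91565623, mm10), was at 449.9 and 466 CPM against 74.6 and 65.7 (2.71 ± 0.11, adjusted p = 3.22e-09). The binding chain Ifngr1 was at 1673 and 1694 CPM against 450.0 and 549.5 (1.75 ± 0.11). Il4ra was at 1163 and 1219 CPM against 389.6 and 419.5 (1.56 ± 0.07), a chain of the interleukin 4 and 13 receptors. Il1rl1, which encodes the interleukin 33 receptor ST2 (chromosome 1, 40429570 to 40465415, mm10), was at 60.1 and 98.6 CPM against 3.70 and 1.39 (5.01 ± 0.39, adjusted p = 8.37e-07), and its tumour level was 17.6% of that in tumour Treg. Il2ra, the high-affinity interleukin 2 receptor chain that marks recent activation and Treg, fell, at 18.3 and 17.2 CPM against 42.5 and 65.9 (−1.62 ± 0.16, adjusted p = 6.04e-06). Il12rb2 fell, at 15.3 and 13.7 CPM against 22.1 and 39.5 (−1.09 ± 0.24). The call of Il12rb2 was lost without spleen library 2 (−0.61, adjusted p = 0.0505), and 40% of its exonic bases lie under a gene on the opposite strand. Il1rap, the partner chain of ST2, rose little (31.3 and 32.9 CPM against 25.5 and 25.1, 0.34 ± 0.08).

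Among the feedback genes of these receptors, Socs3 was at 1006 and 799.8 CPM against 253 and 223 (1.92 ± 0.12, adjusted p = 1.63e-07). The kinase Pim1 was at 696 and 666 CPM against 202 and 173 (1.86 ± 0.09), while Socs2 fell (−0.87 ± 0.21, or −0.37, adjusted p = 0.0395 without spleen library 2). Of the 23 SOCS, STAT and JAK genes 11 rose and 3 fell, or 6 and 5 with library-size scaling. Without tumour library 1, spleen library 1 or spleen library 2, the number that rose was 7. Costimulatory receptors and ligands rose in 12 of 24 and fell in 8. Tnfrsf1b, the second TNF receptor, was at 639 and 521 CPM against 124 and 144 (2.12 ± 0.11). The ligand Tnfsf14, known as LIGHT, fell, at 7.11 and 4.08 CPM against 26.1 and 34.1 (−2.45 ± 0.21). Inhibitory receptors and ectoenzymes rose in 5 of 18 and fell in 6. Ctla4, a brake on costimulation, was at 329 and 282 CPM against 49.9 and 51.9 (2.59 ± 0.12, adjusted p = 9.98e-09). Tigit was at 105 and 69.9 CPM against 41.0 and 51.8 (0.91 ± 0.20). Lag3 fell, at 23.0 and 11.0 CPM against 41.7 and 51.0 (−1.47 ± 0.39). The ectoenzyme Entpd1, known as CD39, did not pass (−0.31 ± 0.16, adjusted p = 0.134). Without tumour library 1 Tigit changed by 0.60, adjusted p = 0.0156, and without spleen library 2 the call of Lag3 was lost (−1.32, adjusted p = 0.0512).

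Tissue residency genes rose in 19 of 27 and fell in 5, with a median of 1.80, and the list also holds Tnfaip3, Crem, Rgs1, Rgs2 and Sik1, described above. The integrin Itgae, which binds epithelial cadherin, was at 13.7 and 11.3 CPM against 0.521 and 1.30 (3.72 ± 0.28, adjusted p = 7.47e-07). The aryl hydrocarbon receptor Ahr was at 43.5 and 42.5 CPM against 8.70 and 11.4 (2.09 ± 0.11). The retention molecule Cd69 was at 245 and 177 CPM against 112 and 141 (0.73 ± 0.18). Other residency genes fell: the chemokine receptor Cxcr6 was at 47.9 and 52.0 CPM against 79.2 and 108 (−0.91 ± 0.14, adjusted p = 1.74e-04). The collagen-binding integrin Itga1 was at 3.27 and 3.95 CPM against 5.37 and 10.6 (−1.15 ± 0.37). The ATP receptor P2rx7 was at 39.1 and 33.5 CPM against 99.9 and 124 (−1.63 ± 0.11). The call of Itga1 was lost without spleen library 2 (−0.57, adjusted p = 0.316), and that of Cd69 without spleen library 1 (0.57, adjusted p = 0.0605).

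Some genes of recirculation rose in the same libraries. S1pr1, which guides exit from lymphoid organs, was at 1864 and 1803 CPM against 812 and 807 (1.18 ± 0.12, adjusted p = 1.05e-05). Its transcriptional activator Klf2 was at 926 and 827 CPM against 351 and 409 (1.20 ± 0.10). The lymph node homing receptor Ccr7 was at 1304 and 1429 CPM against 554 and 601 (1.24 ± 0.08). The naive cell factor Tcf7 did not pass, at 2746 and 2479 CPM against 2225 and 2292 (0.21 ± 0.13, adjusted p = 0.205). Neither did its relative Lef1, at 867 and 886 CPM against 876 and 935 (−0.05 ± 0.12, adjusted p = 0.775). The anti-proliferative genes Btg1 (3031 and 2892 CPM against 1164 and 1036, 1.43 ± 0.07) and Btg2 (829.9 and 820.5 CPM against 281 and 299.8, 1.51 ± 0.06) rose. Over the naive and quiescence list 11 of 30 rose and 6 fell, with a median of 0.10, or −0.005 with library-size scaling. Without spleen library 2, 3 of them fell. In Treg 8 members of that list rose and 18 fell, beside 32.8% and 28.7% of all tested genes.

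Chemokine and lipid receptors rose in 16 of 33 and fell in 7, with a median of 0.83. P2ry10, a receptor for lysophospholipids, was at 1752 and 1755 CPM against 222 and 223 (2.98 ± 0.08, adjusted p = 1.26e-10), with both tumour libraries equal and far above spleen. The chemokine receptor Ccr8, a marker of tissue T cells, was at 59.7 and 50.8 CPM against 4.01 and 6.24 (3.41 ± 0.16). Lpar5, a receptor for lysophosphatidic acid, was at 3.27 and 3.27 CPM against 21.4 and 28.1 (−2.92 ± 0.16). Of 31 integrins and adhesion molecules 16 rose and 7 fell, or 4 without spleen library 2.

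**Figure D3:**
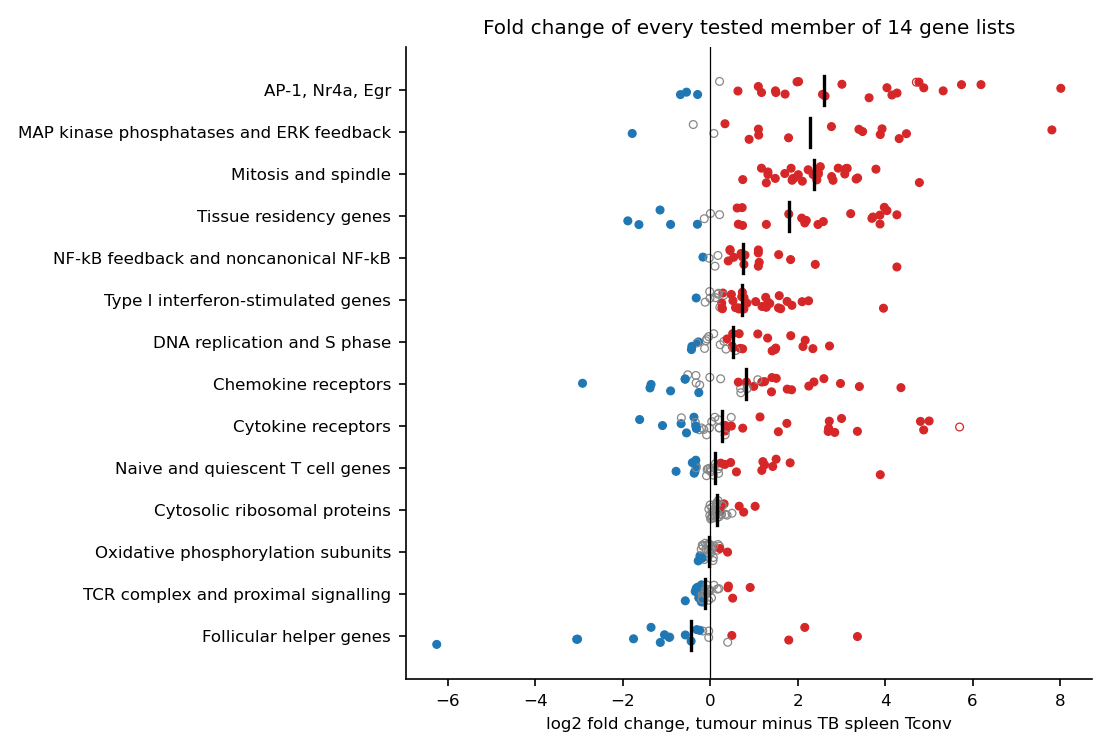
log2 fold change of every tested member of 14 gene lists, 1 point per gene, with the list median as a black bar. Filled red points passed the test as higher and filled blue points as lower, open grey points did not pass, and open red points are members with 0 counts in both spleen libraries, placed at their lower bound. The AP-1 and Nr4a list has a median of 2.60 and the follicular helper list one of −0.44.

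Mitosis genes rose throughout, from a low level, and S phase genes only in part. All 30 tested mitosis and spindle genes rose, 29 of them at least 2-fold, with a median of 2.38. Of 30 DNA replication and S phase genes 17 rose, 3 fell and 10 did not pass, with a median of 0.52. The proliferation marker Mki67 was at 58.1 and 79.1 CPM against 15.3 and 21.7 (1.89 ± 0.24, adjusted p = 4.83e-05). The mitotic cyclin Ccna2 was at 12.2 and 26.6 CPM against 1.67 and 2.74 (3.13 ± 0.39). The cytokinesis protein Anln was at 23.8 and 51.9 CPM against 1.51 and 1.26 (4.78 ± 0.38). All 30 mitosis genes were higher in tumour library 2 than in library 1, by a median of 0.71 on the log2 scale. Fibroblast markers were higher in library 2 as well, in 15 of 16 and by a median of 1.22, while the AP-1 list had a median ratio of −0.05. The part of other cells in the mitosis result was not tested. Without tumour library 2 all 30 mitosis genes still passed, with a median of 1.91, and without library 1 all 30 passed, with a median of 2.70. Cdkn1a, an inhibitor of cyclin-dependent kinases, also rose, at 68.4 and 104 CPM against 0.677 and 0.628 (7.04 ± 0.27, adjusted p = 1.58e-09).

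**Figure D4:**
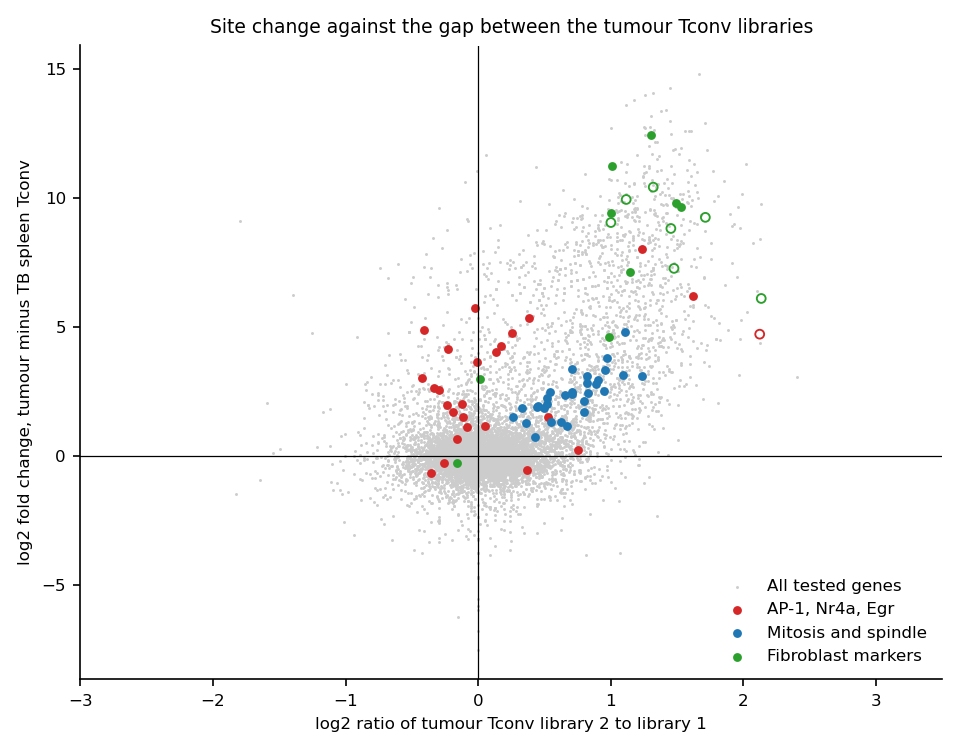
log2 fold change between sites (vertical) against the log2 ratio of tumour Tconv library 2 to library 1 (horizontal) for all tested genes in grey and 3 lists in colour, with open circles for list members at 0 in spleen, placed at their lower bound. Grey points use fitted values. The AP-1 list lies around a ratio of 0, and the mitosis and fibroblast lists lie to the right at medians of 0.71 and 1.22.

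Type I interferon-stimulated genes rose in 29 of 38 and fell in 1, with a median of 0.73. Rsad2, which makes an antiviral nucleotide, was at 100.5 and 68.2 CPM against 12.5 and 22.6 (2.25 ± 0.23, adjusted p = 8.42e-06). The ubiquitin-like Isg15 was at 83.7 and 69.7 CPM against 21.5 and 29.6 (1.58 ± 0.14). The member that fell was the nuclear body gene Sp100 (−0.32 ± 0.10, adjusted p = 0.0163), a call lost without tumour library 2 (−0.27, adjusted p = 0.0711) and without spleen library 2 (−0.29, adjusted p = 0.0871). In 37 of the 38 genes tumour library 1 was the higher of the pair, the reverse of the mitosis list. Responses to interferon gamma rose in 14 of 27 and fell in 1. Cytotoxic granule genes rose in 10 of 18 and fell in 3: Gzmk was at 52.1 and 37.5 CPM against 13.4 and 15.2 (1.64 ± 0.18). Of the 6 tested NK cell markers 1 rose, 2 fell and 3 did not pass. Klrb1c, among those that fell, was at 2.48 and 5.76 CPM against 42.7 and 73.1 (−3.78 ± 0.35). Outside that list, the activating receptor Klrk1 was at 9.42 and 13.9 CPM against 29.6 and 47.5 (−1.72 ± 0.23). Cd160, of the inhibitory receptor list, was at 2.43 and 1.59 CPM against 22.8 and 27.4 (−3.66 ± 0.19).

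Survival genes split, with 14 of 31 higher and 9 lower. The pro-death Bcl2l11 (458 and 447 CPM against 136 and 150.1, 1.66 ± 0.07) and Pmaip1 (41.5 and 41.4 CPM against 3.23 and 5.79, 3.18 ± 0.17) rose, as did the pro-survival Mcl1 (1495 and 1637 CPM against 852 and 763, 0.96 ± 0.08), while the pro-survival Bcl2 fell (519.6 and 523 CPM against 844 and 805, −0.66 ± 0.06, adjusted p = 4.39e-06). Circadian genes, which include Bhlhe40 and Nfil3 of the lineage list, rose in 11 of 18 and fell in 2. The core clock gene Per1 was at 558 and 442 CPM against 104 and 115 (2.19 ± 0.11). Dbp, a clock output factor, was at 6.37 and 5.58 CPM against 12.2 and 13.3 (−1.10 ± 0.17). Glucocorticoid-responsive genes rose in 11 of 22 and fell in 6. Errfi1 was among the 5 members with the largest increase, and Ddit4 and Zbtb16 fell most. The antioxidant and metallothionein list rose in 14 of 23 (9 without tumour library 2) and fell in 2, and heat shock genes rose in 12 of 23 and fell in 3. Mt1 (12.3 and 34.8 CPM against 0.00 and 0.269) and Mt2 (15.7 and 48.4 CPM against 0.00 and 0.0449), the metallothioneins, were higher in tumour library 2 than in library 1 by 1.46 and 1.59 on the log2 scale. Spleen library 1 had 0 counts of both and spleen library 2 had 6 and 1, so no fold is given, and 73.5% of the exonic bases of Mt2 lie under a gene on the opposite strand.

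Few oxidative phosphorylation and ribosomal protein genes passed. Oxidative phosphorylation subunits rose in 2 of 28 and fell in 3 (17.9% called, beside 49.1% of all tested genes), and cytosolic ribosomal proteins rose in 6 of 36 and fell in 0 (16.7% called). The number of ribosomal genes that rose was 11 without tumour library 2 or with DESeq2, and 2 without spleen library 1 or with the 4 compared libraries alone. Of 35 genes of glycolysis and hypoxia, 13 were higher and 4 lower, or 2 without spleen library 2. Of 38 cholesterol and fatty acid genes, 15 rose and 4 fell, with 7 lower without tumour library 2 and 2 without spleen library 2. Of 22 amino acid and nutrient transporters, 9 rose and 6 fell, and of 31 stress response genes of the unfolded protein and amino acid pathways, 13 rose and 8 fell (5 without spleen library 2). The T cell receptor complex and its proximal kinases rose in 4 of 32 and fell in 9 with a median of −0.13. The number that fell was 4 without tumour library 2, 5 without spleen library 2 and 4 with the 4 compared libraries alone. With library-size scaling 18 of the 32 fell and 4 rose, 10 oxidative phosphorylation genes fell and 0 rose, and the medians of the transporter, cholesterol and stress response lists turned from 0.10, 0.01 and 0.10 to −0.01, −0.10 and −0.01.

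The largest decreases among well-counted genes were smaller than the largest increases. Ddit4, an inhibitor of mTORC1 signalling, was at 62.9 and 45.9 CPM against 353 and 446 (−2.88 ± 0.26, adjusted p = 3.10e-06). The monocarboxylate transporter family member Slc16a5 was at 10.4 and 9.53 CPM against 64.3 and 64.8 (−2.70 ± 0.09, adjusted p = 7.29e-10). The cannabinoid receptor Cnr2 was at 11.6 and 11.8 CPM against 51.4 and 45.5 (−2.05 ± 0.11). Both tumour libraries lay below both spleen libraries for each, which the rule that named the largest decreases required. Tor4a (−1.90 ± 0.07), the transcription factor Tfap4 (−1.67 ± 0.11), the semaphorin Sema4b (−1.52 ± 0.08), Zfp790 (−1.73 ± 0.10), Pdik1l (−1.67 ± 0.15), Dclre1b (−1.61 ± 0.10), Cep19 (−1.60 ± 0.11), Armc7 (−1.57 ± 0.10), Atp8a2 (−1.55 ± 0.20), Zfp553 (−1.54 ± 0.10) and Klhl42 (−1.53 ± 0.14) completed the 20 with Dusp7, Pou2af1, Klrk1, P2rx7, Il2ra and Lag3. Of the 20 largest increases, the endosomal sorting gene Vps37b (3077 and 3033 CPM against 221 and 212, 3.82 ± 0.09, adjusted p = 6.20e-11) overlaps an opposite-strand gene over 42.5% of its exonic bases. Thbs1 (229 and 549 CPM against 0.677 and 0.449), Spp1 (161 and 546 CPM against 5.89 and 10.6), Emp1 (105 and 241 CPM against 4.01 and 7.76), Lamc1 (45.0 and 84.9 CPM against 4.64 and 5.30) and Lmna (99.1 and 162 CPM against 8.96 and 11.7) were all higher in tumour library 2, and the remaining ones are named above.

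Transcripts known from cells other than CD4+ T cells were counted in the tumour libraries and were at or near 0 in TB spleen for many markers. Such markers passed the filter on low counts through the tumour libraries, so their counts of increases were largely set in advance and are a description. Fibroblast markers were higher in 15 of 16. The exception was Thy1, which T cells express and which fell (−0.28 ± 0.10, adjusted p = 0.0387), a call lost without tumour library 2 (−0.21, adjusted p = 0.160) or spleen library 2 (−0.16, adjusted p = 0.289). The median was 10.37, or 9.14 with the 7 members at 0 in both spleen libraries set at a floor of 3 counts in spleen. Col1a1, a collagen chain, was at 31.8 and 70.8 CPM against 0.573 and 0.179 (7.13 ± 0.48). The lung epithelial secretoglobin Scgb1a1 was at 63.3 and 63.0 CPM against 0.00 and 0.0449, a single count in the spleen libraries together. Epithelial markers were called higher in 13 of 16 and lower in 0 (median 7.29, or 4.49 with 6 members at the floor), and macrophage and monocyte markers in 17 of 18 and 0. Lyz2, lysozyme of myeloid cells, was at 153 and 391 CPM against 0.313 and 0.538 (9.28 ± 0.62). Chil3, of alveolar macrophages, was at 101 and 292 CPM against 0.104 and 0.224, so near 0 in spleen that no fold is given. As shares of all counts the macrophage list made up 0.0788% and 0.127% in tumour and 0.0350% and 0.0393% in TB spleen. The epithelial list made up 0.0101% and 0.0119% in tumour and 0.000945% and 0.000952% in TB spleen, where 8 and 9 of its members were at 0. The fibroblast list, Thy1 included, made up 0.138% and 0.208% in tumour and 0.103% and 0.121% in TB spleen, where 10 and 8 members were at 0. The part of these cells in the changes above was not tested.

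Markers of the remaining cell types gave mixed counts. Neutrophil markers rose in 6 of 10 and fell in 1, though in 1 and 2 without spleen library 1, in 2 and 1 without tumour library 2 and in 3 and 1 without spleen library 2. Dendritic cell markers rose in 3 of 7 and fell in 0, endothelial markers in 4 of 7 and 1 (2 and 0 without tumour library 2, 2 and 1 without spleen library 1), and markers of type 2 innate lymphoid cells in 3 of 6 and 0. Mast cell and basophil markers rose in 3 of 4 and fell in 1, with 8 members too low to test. Markers of B cells rose in 1 of 5 and fell in 2, and the 2 CD8 markers and the 2 tested erythroid and platelet markers did not pass. Of the CD4 identity genes 1 of 8 rose and 4 fell, with 1 lower without tumour library 2 or with the 4 compared libraries alone, and 2 without spleen library 2. Of the MHC class II genes 4 of 12 rose and 2 fell, so that 6 of 12 were called beside 49.1% of all tested genes. None of the 12 fell without tumour library 2, without spleen library 1 or without spleen library 2. Of the gamma-delta T cell list only Sox13 was in the table, and it was too low to test. Markers of Treg rose in 5 of 14 and fell in 4, with Ikzf2 (31.9 and 31.2 CPM against 57.5 and 60.1, −0.90 ± 0.11) among those that fell.

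In all, 655 genes had 0 counts in both TB spleen libraries and at least 10 counts in tumour, 511 of them tested, and 440 of the 655 were also at 0 in both normal spleen Tconv libraries. Cyr61, a matricellular protein gene, had 1361 and 5407 counts in tumour and was at least 2226-fold higher by the mean of both libraries and at least 1061-fold by library 1 alone, taking 3 counts over the spleen libraries as the limit. Ereg, an EGF family ligand, had 1067 and 3629 counts and was at least 1554-fold higher, or 832-fold by library 1 alone. The next by count were the matrix genes Bgn, Col6a3, Hspg2, Col6a1, Mmp2 and Mgp, the guidance gene Slit2 and Tenm3. All 10 were higher in tumour library 2 than in library 1. Folds against 0 cover counting error only. Of the 20 chemokine ligands 15 were tested, and 6 of these were at 0 in both spleen libraries. Of the 15, 11 were higher and 1, Xcl1, fell (−1.89 ± 0.31). Their median was 3.70, or 2.77 with those 6 at the floor. Ligands so low in spleen passed the filter on low counts through libraries where they are higher. The count of increases was thus largely set in advance and is a description. The widest gaps between the 2 tumour libraries among genes well expressed there (mean log2 CPM 4 or more) included Spp1, Ccl2, Ptgs1, Pdgfra, Hbegf, Cyr61, Wwtr1, Ier3 and Cp, all higher in library 2. Of 7510 such genes, 139 were over 2-fold higher in library 2 and 3 over 2-fold higher in library 1.

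Several lists that rose in Tconv also rose in Treg, where 32.8% of all tested genes were higher and 28.7% lower. In Treg the AP-1, Nr4a and Egr list rose in 20 of 26 and fell in 3, with a median of 2.29. MAP kinase feedback genes rose there in 11 of 16 and fell in 2, and NF-kB feedback genes in 15 of 20 and 1. Residency genes rose in 22 of 27 and fell in 2, and all 30 mitosis genes rose (median 1.32). The change between sites in Tconv was also set against that in Treg, as the difference of the 2 changes. It passed for 3337 genes (24.7%), 1763 more positive in Tconv (13.1%) and 1574 more negative (11.7%). The number depended on single libraries: it was 2161 without spleen Treg library 1, with 1158 more positive and 1003 more negative, and 1036 were more negative without spleen Tconv library 2. The most positive difference was in Tnfsf11, the cytokine RANKL, which was at 124 and 109.6 CPM against 28.4 and 25.8 in Tconv and changed by 2.11 ± 0.09 there and by −0.77 ± 0.09 in Treg (difference 2.88 ± 0.13, adjusted p = 1.26e-07). Ifngr2 changed by 2.71 ± 0.11 in Tconv and 0.31 ± 0.11 in Treg (difference 2.39 ± 0.16, adjusted p = 1.77e-06). Tbc1d4, a Rab regulator, changed by −0.44 ± 0.12 in Tconv and −2.81 ± 0.13 in Treg (difference 2.38 ± 0.18), and the nuclear factor Aff3 by −0.27 ± 0.08 and −2.69 ± 0.09 (difference 2.42 ± 0.12). Without spleen Tconv library 2 the Tconv calls of Tbc1d4 (−0.38, adjusted p = 0.0762) and Aff3 (−0.18, adjusted p = 0.131) were lost, as was that of Tbc1d4 without tumour library 2 (−0.27, adjusted p = 0.0851). Sdc4, Lrrc32, Il1rl1 and Dtx4 completed the 8 most positive among genes called in both tests and expressed above a fixed level, and without spleen Tconv library 2 the difference of Lrrc32 was 4.06, adjusted p = 0.00628 in place of 2.41 ± 0.50. Socs3, Myb, Irf4 and Arid5a were more positive in Tconv too, with differences of 1.55 ± 0.17, 2.19 ± 0.14, 1.71 ± 0.13 and 1.68 ± 0.15.

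In the other direction, Cxcr6 fell in Tconv (−0.91 ± 0.14) and rose in Treg (4.32 ± 0.19), a difference of −5.23 ± 0.23 (adjusted p = 1.26e-07). Id2, an inhibitor of E proteins, did the same, with 144 and 125 CPM against 212 and 289 in Tconv (−0.90 ± 0.12), 3.04 ± 0.13 in Treg and a difference of −3.94 ± 0.17. Ddit4 fell in Tconv (−2.88 ± 0.26) and did not pass in Treg (0.11 ± 0.24), a difference of −2.99 ± 0.35 (adjusted p = 1.01e-04). Spp1, Sulf2, Sytl3, App and Serpina3f completed the 8 most negative. The call of Spp1 (−5.55 ± 1.35, adjusted p = 0.0108) was lost without spleen Tconv library 2 (−5.05, adjusted p = 0.0615), without spleen Treg library 1 (−5.22, adjusted p = 0.0598) and with limma-voom (−5.67, adjusted p = 0.164). The change of Sulf2 in Tconv (1.06 ± 0.35) lost its call without tumour library 2 (0.17, adjusted p = 0.611), without spleen library 1 (0.74, adjusted p = 0.185), with limma-voom (0.96, adjusted p = 0.0520) and with the 4 compared libraries alone (1.10, adjusted p = 0.0949). That of Sytl3 (−0.56 ± 0.15) lost it without spleen library 2 (−0.50, adjusted p = 0.0606). By list, 23 of 30 naive and quiescence genes were more positive in Tconv and 2 more negative, beside 13.1% and 11.7% of all tested genes. Of 38 type I interferon genes, 19 were more negative and 1 more positive. Among other lists, 13 of 36 ribosomal protein genes were more positive and 0 more negative. Oxidative phosphorylation genes were more positive in 0 of 28 and more negative in 7, and cytotoxic granule genes in 1 of 18 and 7.

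**Figure D5:**
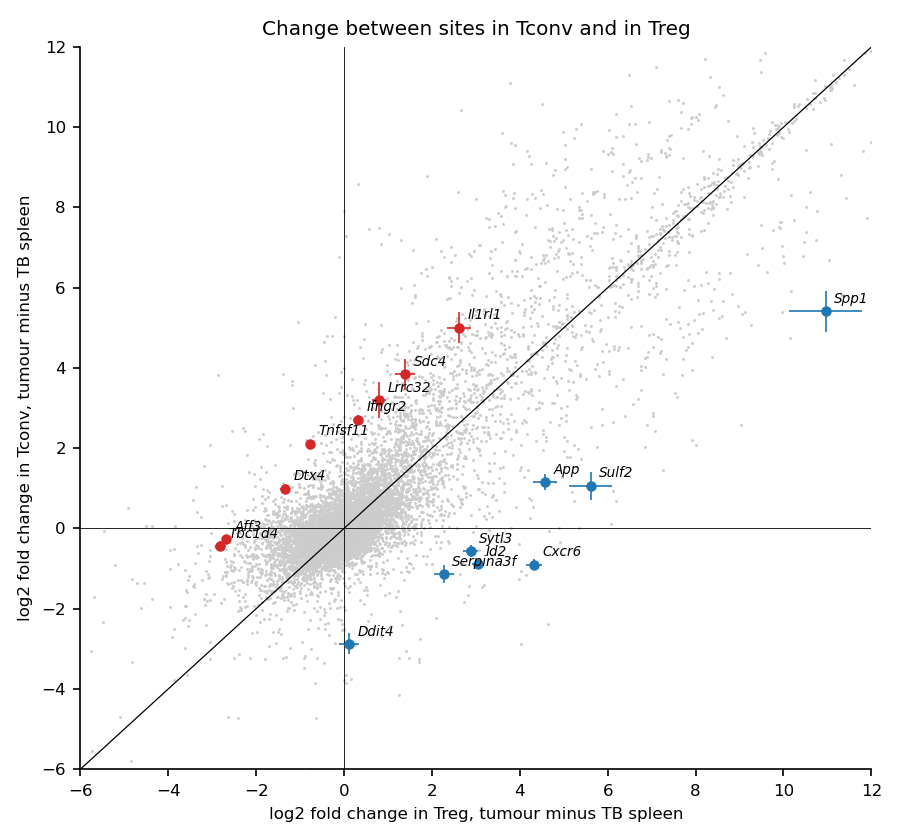
log2 fold change between tumour and TB spleen in Treg (horizontal) and Tconv (vertical) for all tested genes in grey, with the line of equal change. The 8 genes with the most positive difference (red) and the 8 with the most negative (blue) carry bars of 1 SE, and Cxcr6 and Id2 lie below 0 in Tconv and above 0 in Treg.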

How the data were processed

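RNA was measured by RNA-seq in 12 libraries of 6 groups with 2 libraries each, and 4 of them were compared here. The authors deposited a single table of raw counts per gene; per the submitters' processing notes STAR, featureCounts and the mm10 build were used. Versions and the strand setting of the counting are not given in the sources used here. Reads of a gene and of an overlapping gene on the opposite strand therefore cannot be told apart. Of the genes named, Foxp3, Dusp5, Nfkb2, Il12rb2, Pim1, Lef1, Ccna2, Dbp, Mt2, Dclre1b, Atp8a2, Vps37b and Xcl1 have over 10% of their exonic bases under such a gene.

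Counts were normalised by TMM and fitted with edgeR 4.0.16 (R 4.3.3) over all 12 libraries as 6 group means (6 residual degrees of freedom), with filterByExpr by group leaving 13509 of 24062 genes. The quasi-likelihood test was used with Benjamini-Hochberg adjustment and a threshold of 0.05. On simulated data with 12969 genes, 85% of genes changed by 1 on the log2 scale and 53% of those changed by 0.5 were recovered. Of 147 calls 9 were false. The simulation changed only 200 genes and gave every library the same spread. In the data the tumour Tconv libraries spread more, with 713 genes over 2-fold apart against 25 for TB spleen Tconv. These rates therefore cannot be carried over to the comparison made here. Depth was 18624132 to 24111546 counts per library. CPM use TMM-scaled library sizes, and the error is the SE of the fit. A fold against 0 counts is a lower bound at 3 counts over the group.

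The 51 gene lists (1020 distinct genes) and the genes named were chosen with earlier results of these data known. Genes were named by a rule: the 20 largest increases and decreases at a mean log2 CPM of at least 4 without overlap, the 5 called members of each list with the largest change in each direction, a few key genes, the 10 widest gaps between the tumour libraries, the 8 most positive and most negative differences from Treg, and the 10 with most counts. Outside the rule, Fos, Jun, Pde4b, Pde4d, Zfp36, Nfkbia, Nfkb2, Myb, Ccr6, Ifngr1, Il4ra, Ahr, Klf2, Isg15, Bcl2l11 and Mcl1 were chosen after their values were seen. Alternatives were DESeq2 1.42.0, limma-voom 3.58.1, other scalings, filters and subsets of libraries, and a replicate block. Replicate numbers were not taken to pair the samples in the main fit, and no label says if they do. Deviations correlated by −0.0384 between the groups compared and by −0.148 to 0.268 over the 6 pairs of groups of TB mice. With 2 libraries per group, this cannot exclude a pairing.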

Additional observations from a re-analysis of the deposited data

Results flagged for a closer look

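The change between tumour and TB spleen differed between Tconv and Treg for 3337 genes by edgeR's quasi-likelihood test of the difference. In Tconv it was more positive for Tnfsf11 (2.88 on the log2 scale), Sdc4 (2.44), Aff3 (2.42), Lrrc32 (2.41), Ifngr2 (2.39), Il1rl1 (2.39), Tbc1d4 (2.38) and Dtx4 (2.33). It was more negative for Spp1 (−5.55), Cxcr6 (−5.23), Sulf2 (−4.55), Id2 (−3.94), Sytl3 (−3.44), App (−3.42), Serpina3f (−3.41) and Ddit4 (−2.99). These 16 were named for the size of this difference, so their values are a description of it.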

How the results depend on the processing

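Of the 2544 alternative values of the genes named (192 fold changes and differences from Treg), 2465 kept their direction and their side of the threshold. Genes called numbered 6639 and ranged from 5258 to 6142 with each of the 4 libraries left out in turn, with 2969 to 3603 higher and 2289 to 2598 lower. Genes changed at least 2-fold ranged from 2349 to 2813, with 1885 to 2404 higher and 362 to 464 lower. Of the 6639 called genes, 4226 were called in all 4 leave-outs, as were 1752 of the 2206 at least 2-fold higher and 327 of the 425 at least 2-fold lower. Fitted on the 4 compared libraries alone, 1763 genes were lower against 3077. That fit draws its spread from fewer libraries, while the main fit also draws on groups whose libraries were more alike than the tumour Tconv libraries. The cause of the lower count was not tested. The stricter test against a fold of 2 (glmTreat) left 154 lower genes against 425. For the difference from Treg, leave-outs gave 2161 to 3679 genes, 1158 to 1979 more positive and 1003 to 1781 more negative, and with the 8 libraries of TB mice 945 were more negative against 1574; the cause was not tested. With DESeq2 5662 genes were called, with limma-voom 6564.

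Among the genes named, the direction turned with a library left out only for differences that had not passed. Over the 4 leave-outs the log2 fold change ran from −0.117 (without spleen library 1) to 0.0285 (without spleen library 2) for Cd4, with 0.0202 without tumour library 2. It ran from −0.385 (passing, without tumour library 1) to 0.0882 (without tumour library 2) for Foxp3, with 0.0367 without spleen library 2. It ran from −0.0788 (without tumour library 1) to 0.406 (passing, without tumour library 2) for Gata3, and from −0.596 (passing, without spleen library 1) to 0.0685 (without spleen library 2) for Entpd1. With the 4 compared libraries alone the calls of Aff3, Cd3e, Eef2, H2-K1, Jun, Socs2, Sp100, Srf, Sulf2, Tbc1d4, Thy1 and Traf3 were lost, and with the 8 libraries of TB mice those of Cd3e, Jun, Sp100, Srf, Thy1 and Traf3. Where a leave-out leaves a group with 1 library, that library is assumed to vary like the other groups. With the replicate number as a block 6674 genes were called and 3482 differed from Treg, and no call of a named gene changed. The same numbers head the column names of both sites and both cell types in TB mice, but no label says what they stand for. Deviations correlated by −0.0384 over 8759 genes between the groups compared and by −0.148 to 0.268 over the 6 pairs of groups of TB mice. With 2 libraries per group this cannot exclude a pairing, and the main fit used none. Depth limits what can be said of genes with few counts, such as Il5 and Il13.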
